A study of Mus musculus with 6 samples.

Results

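The genes described here are those that license replication origins, unwind and copy DNA at the fork and rebuild chromatin behind it. They were chosen as a list of 52 genes by known role, with earlier results of these data known. Every probe set whose array annotation gives exactly 1 symbol from that list was taken. This found 104 probe sets for 51 genes, of 18193 genes with such a probe set. Chaf1a, a subunit of chromatin assembly factor 1, had no probe set of its own.

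The samples were tracheal epithelium of male C57Bl/6 mice, labelled either as normal control or as taken 48 h post injury (48 hpi). The injury was inhalation of 500 ppm SO2 in air for 4 h, by adult mice that the methods give as 8 to 12 weeks old for this model. Each group had 3 samples, and each sample pooled the epithelium of 4 tracheas, peeled off after protease digestion and depleted of CD45+ leukocytes. Because animals were pooled, the spread between samples does not show the spread between mice. The values are log2 signals of Affymetrix arrays normalized by robust multi-chip analysis (RMA).

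DNA replication starts at origins that are bound by the origin recognition complex. Cdc6 and Cdt1 then load the MCM helicase as an inactive ring, a step called licensing, and geminin (Gmnn) blocks Cdt1 outside the licensing period. The kinase Cdc7 with its partner Dbf4 activates the helicase, which joins Cdc45 and the GINS complex. Polymerases alpha, delta and epsilon copy the strands, held to DNA by the sliding clamp PCNA and its loader RFC. In the resting trachea most epithelial cells divide rarely, and basal cells enter the cell cycle when luminal cells are lost.

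Promoter sequences are shown first because many replication genes are known targets of the E2F transcription factors, and most of the genes on the list moved together. RefSeq promoters of build GRCm38.p6, from 250 bases before to 50 bases after the start site, were matched by symbol to 41 of the 52 genes. Each window was searched on both strands for the E2F words TTTCCCGC, TTTCGCGC, TTTGCCGC and TTTGGCGC. The printed stretches are the 180 bases before the start of 6 genes, written on the strand of the gene with E2F words in capitals. Mcm5, Mcm6 and Cdc6 are shown as strongly raised genes, Orc1 and Orc3 as the least changed on their brightest probe sets, and Rfc4 as a raised gene without a match.
Mcm5 (chr8:75109329-75109508, + strand): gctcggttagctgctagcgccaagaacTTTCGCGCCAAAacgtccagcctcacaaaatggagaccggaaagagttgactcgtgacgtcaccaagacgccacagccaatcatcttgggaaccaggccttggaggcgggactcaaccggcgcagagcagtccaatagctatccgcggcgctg
Mcm6 (chr1:128359706-128359885, - strand): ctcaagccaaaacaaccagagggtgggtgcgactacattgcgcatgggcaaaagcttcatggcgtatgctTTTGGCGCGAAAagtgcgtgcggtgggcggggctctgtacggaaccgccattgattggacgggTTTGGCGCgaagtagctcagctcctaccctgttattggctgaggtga
Cdc6 (chr11:98907971-98908150, + strand): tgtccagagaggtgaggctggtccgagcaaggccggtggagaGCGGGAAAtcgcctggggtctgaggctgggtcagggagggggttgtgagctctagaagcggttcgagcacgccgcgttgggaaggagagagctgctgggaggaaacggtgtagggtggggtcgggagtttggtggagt
Orc1 (chr4:108579274-108579453, + strand): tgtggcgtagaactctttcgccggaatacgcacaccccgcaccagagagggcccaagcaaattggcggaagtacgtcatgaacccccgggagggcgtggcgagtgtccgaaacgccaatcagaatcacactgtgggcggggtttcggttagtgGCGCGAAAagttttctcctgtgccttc
Orc3 (chr4:34614943-34615122, - strand): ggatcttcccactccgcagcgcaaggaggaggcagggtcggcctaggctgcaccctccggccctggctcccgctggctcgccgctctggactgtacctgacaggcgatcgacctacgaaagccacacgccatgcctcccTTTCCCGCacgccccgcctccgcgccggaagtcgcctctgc
Rfc4 (chr16:23127731-23127910, - strand): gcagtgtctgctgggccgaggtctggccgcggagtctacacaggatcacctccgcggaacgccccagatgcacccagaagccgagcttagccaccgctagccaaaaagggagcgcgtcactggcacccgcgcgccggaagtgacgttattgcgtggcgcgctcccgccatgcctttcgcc

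In Mcm5 and in Mcm6 matches on opposite strands overlap in 1 run of capitals. Other genes had their match just after the start site, of which 3 strongly raised ones are shown with 8 bases on each side. The first base of the match lies 19 bases after the start in Mcm3, 32 in Cdt1 and 21 in Clspn.
Mcm3 (chr1:20820278-20820301, - strand): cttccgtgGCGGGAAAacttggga
Cdt1 (chr8:122568039-122568062, + strand): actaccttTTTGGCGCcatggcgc
Clspn (chr4:126556993-126557016, + strand): gcgtctggGCGCGAAAgctcgaac

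An E2F word was found in 16 of the 41 genes, or 39.0%, against 3.81% of the genes on the arrays with a promoter in the same table. The median base composition of the windows was 61.8% G and C for the replication genes and 58.3% for the genes on the arrays. TTTCCCGC was found in 8 of the genes, TTTCGCGC in 7, TTTGGCGC in 6 and TTTGCCGC in 0. The CCAAT box was present in 58.5% of the 41 genes against 42.0% on the arrays, and the cell cycle homology word TTTGAA in 17.1% against 15.7%. Among genes with values, the 16 with an E2F word had a median log2 change of 2.53 (from 0.17 to 3.74). The 24 without one had 1.84 (from 0.60 to 3.23). The ranges overlap, and whether the change differs with the word was not tested. A match is a word in a window and was not tested for binding.

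At 48 hpi, 50 of 51 replication genes were higher than in control epithelium and none was lower. A gene was called at an adjusted p below 0.05 from limma, with Benjamini-Hochberg adjustment over all 18193 genes. The test used the brightest probe set of the gene by its mean in the 6 arrays. Of all genes, 19.4% were called higher and 17.5% lower by the same rule. That mean includes the 48 hpi arrays, so it favours probe sets that rise. In Orc2, Mcm3, Clspn, Cdc45 and Cdc7 a different probe set was the brightest in control. Those probe sets changed by 0.71, 2.97, 1.75, −0.47 (called lower) and −0.01 (not called). A choice by control level was not tried. Higher genes made up 52.5% of the called genes, 84.0% when arrays were scaled to their hybridization controls and 63.4% with a common median, and 50 replication genes were higher under each scaling. The median log2 change, 48 hpi minus control, was 1.99 over the replication genes and −0.02 over all genes. None of the 51 had a negative change on the probe set used. On it none was therefore lower at an unadjusted p below 0.05, or by an equal-variance test per gene without limma's moderation. Of the 51 genes, 43 were higher by a log2 change of at least 1, as were 5.1% of all genes, and 25 by at least 2, as were 1.24% of all genes. A change of at least 3 was seen in 7, against 0.489% of all genes. Over all genes ranked by their rise, 21 of the 51 lay in the top 1% and 43 in the top 5%.

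The arrays of the groups did not overlap for 50 of the 51 genes, each of them higher at 48 hpi, against 25.4% of all genes with the same pattern. In 0 of the 51 genes did all 48 hpi arrays lie below control, as they did in 25.1% of all genes. With 3 pools in each group, the smallest two-sided p of an exact permutation test on 1 gene is 0.1. Per array, the median over the 51 genes was 6.44, 6.39 and 6.47 in control and 8.06, 7.99 and 8.40 at 48 hpi. Replicate 3 was the highest of the 48 hpi arrays for 44 of the 51 genes, and for 36.7% of all genes. It also stood apart across all genes, with correlations of 0.9905 and 0.9916 to the other 48 hpi arrays, against 0.9964 between those. Without it, 49 replication genes were called higher and none lower. The lost call was that of Orc3.

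**Figure D1:**
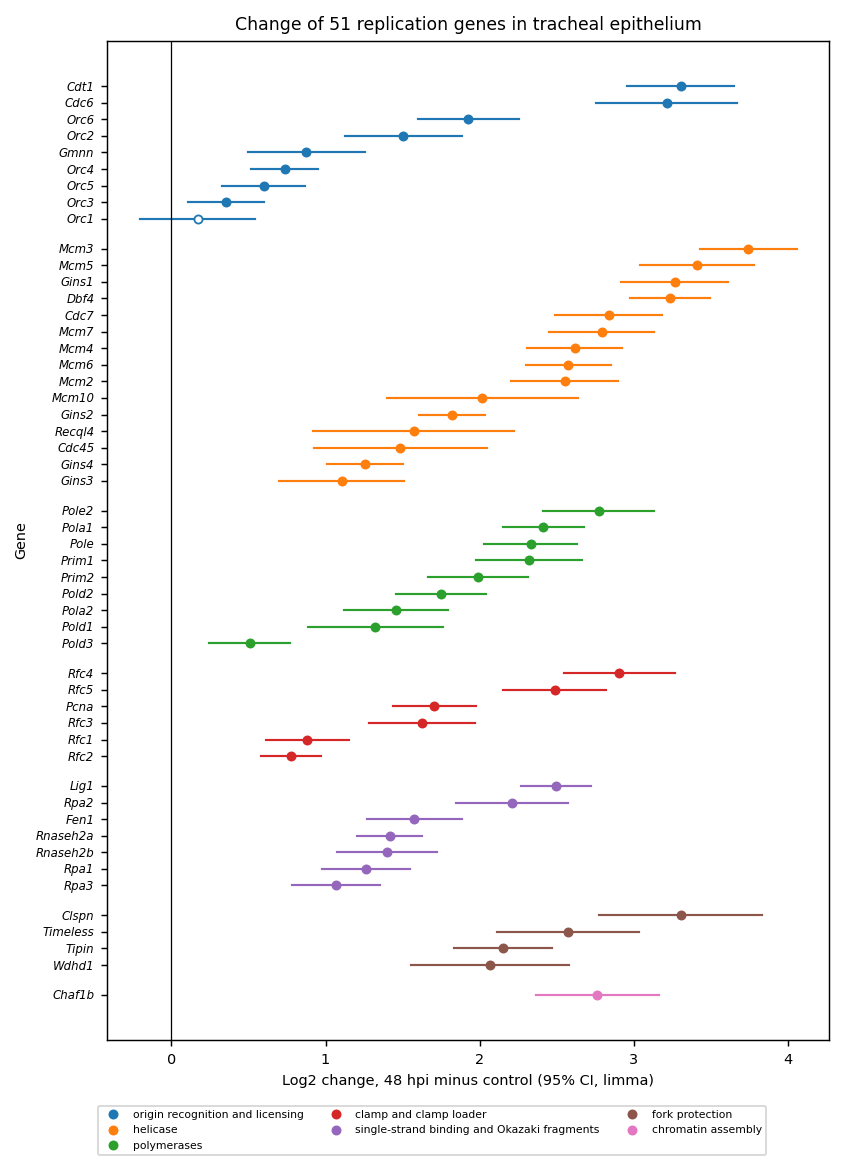
Log2 change, 48 hpi minus control, of the 51 replication genes on the brightest probe set of each, with 95% confidence intervals from limma (3 pools against 3). Colours mark the functional groups, filled points genes called higher and the open point Orc1, which was not called. Mcm3 lies at the top of the scale with 3.74.

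These are whole epithelial pools, in which fewer cells of a type and less RNA per cell cannot be told apart. The epithelial markers were well above background in both groups, with Epcam at 11.04 ± 0.03 in control and 11.32 ± 0.09 at 48 hpi and Cdh1 at 11.81 ± 0.04 and 11.63 ± 0.08 (SD, n = 3 pools). The basal keratin genes Krt5 and Krt14 were higher, with log2 changes of 0.69 (SE 0.11) for Krt5 and 3.18 (SE 0.34) for Krt14. The basal cell receptor gene Ngfr was lower (−0.66, SE 0.14), and Trp63, a basal cell transcription factor, did not pass the test (−0.34, SE 0.14). Of 8 secretory cell markers 7 were lower, and of 7 ciliated cell markers 5 were lower, against 17.5% of all genes. Dnah5, among the lower ciliated markers, was within background in both groups (means of 4.45 in control and 3.70 at 48 hpi). The lower ciliated markers included the axonemal genes Dnah9 (−1.58, SE 0.24) and Hydin (−1.12, SE 0.13), while Tubb4b, a tubulin gene, was not called (0.08, SE 0.09). The summed linear signals from 127096 to 130877 in control and from 52280 to 90117 at 48 hpi for secretory cells, and from 2363 to 3044 and from 2346 to 2751 for ciliated cells, of which Tubb4b made up most. In each of the 8 secretory markers, replicate 3 at 48 hpi, in which most replication genes were highest, was the lowest of all arrays. The ciliated cell regulator Foxj1 did not pass the test (−0.04, SE 0.40), and Scgb1a1, the club cell secretoglobin, was lower (−0.51, SE 0.17), from control values close to the highest signal on each array, where its size may be understated. The same limit applies to the secretory sums. The part of these marker changes in the rise of the replication genes was not tested.

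Ptprc, which encodes CD45, was within background in both groups (3.04 ± 0.11 and 2.83 ± 0.02, SD, n = 3 pools). Background was the level below which 95% of 79 probe sets of chemosensory receptor genes (olfactory, vomeronasal, trace amine) lay, 4.94 in control and 4.81 at 48 hpi. Of 14 leukocyte markers 5 were above background in each group. Of the 14, 1 was called higher and 2 lower, against 19.4% and 17.5% of all genes. The higher one, Coro1a, was within background, and the lower ones were Lyz2 (−3.14, SE 0.78) and Csf1r (−0.84, SE 0.15). Lyz2 had a control mean of 13.77, while Ptprc, Itgam and Adgre1 were within background and Cd68 was above it and not called. Which cells gave the Lyz2 signal was not tested. The summed signal of these markers ranged from 12798 to 15416 in control and from 743 to 5593 at 48 hpi, led by Lyz2. Of 5 endothelial markers 1 was above background in each group, and of 8 fibroblast and cartilage markers 2 were in control and 4 at 48 hpi. Their summed signals were 71.3 to 86.7 and 69.1 to 75.3 for endothelium, and 1201 to 1701 and 338 to 793 for fibroblasts and cartilage. The latter sum was carried by Dcn, which encodes the matrix protein decorin and was lower (−1.85, SE 0.38), and no other marker of that list was called. Pecam1 was within background in both groups, and Col1a1, a collagen gene of fibroblasts, did not pass the test (4.79 ± 0.11 and 5.23 ± 0.49, SD, n = 3 pools). The T cell gene Cd3e measured 5.39, 5.63 and 5.43 in control and 5.39, 5.32 and 5.30 at 48 hpi, and the B cell gene Cd79a was within background in both groups.

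The origin recognition and licensing genes were the most uneven group. Both loading factors rose strongly, whereas of the 6 subunits of the origin recognition complex 5 were higher, by 0.35 to 1.93 on the log2 scale, and Orc1 was not called on the probe sets used. Of 9 genes 8 were higher, with a median log2 change of 0.88. Cdt1 measured 7.30, 7.51 and 7.65 in control and 10.54, 10.76 and 11.07 at 48 hpi, a rise of 9.88-fold (95% interval 7.75 to 12.6, limma, adjusted p = 5.02e-06). A second probe set of Cdt1 gave 3.23 (SE 0.13), and the third was within background in both groups and not called (−0.04, SE 0.09). Cdc6, the ATPase that works with Cdt1, measured 4.38, 4.05 and 4.07 in control, all within background, and 7.0, 7.31 and 7.83 at 48 hpi. Its log2 change was 3.21 (SE 0.20), and counted from the background level its rise was 5.43-fold.

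Gmnn, the inhibitor of Cdt1, had a smaller change than Cdt1. It measured 8.95, 9.32 and 8.86 in control and 9.72, 9.83 and 10.21 at 48 hpi, a log2 change of 0.88 (SE 0.16). The difference between Cdt1 and Gmnn within an array was −1.56 ± 0.31 in control and 0.87 ± 0.05 in the injured epithelium (SD, 3 pools each), so that the change of Cdt1 exceeded that of Gmnn by 2.43. The arrays of the groups did not overlap in this difference (exact permutation test, two-sided p = 0.1, adjusted p = 0.136 over the pairs).

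Among the subunits of the origin recognition complex, Orc6 had the largest rise on the probe sets used. It measured 6.12, 6.11 and 6.47 in control and 8.15, 7.96 and 8.38 at 48 hpi, a log2 change of 1.93 (SE 0.14). Orc2 followed with 5.44, 5.92 and 5.83 in control and 7.22, 6.98 and 7.49 at 48 hpi, a change of 1.5 (SE 0.16), and its other probe sets gave 0.71 and 1.58. The intervals of Orc6 (1.60 to 2.25) and Orc2 (1.12 to 1.88) overlap. Orc4 measured 6.71, 6.74 and 6.64 in control and 7.36, 7.36 and 7.57 at 48 hpi, a change of 0.73 (SE 0.09). Orc5 measured 5.99, 6.06 and 6.37 in control and 6.66, 6.81 and 6.74 at 48 hpi, a change of 0.60 (SE 0.12). Both were higher, with intervals that overlap. Within an array, the change of Orc6 exceeded that of Orc4 by 1.19, with no overlap of the arrays (exact permutation test, two-sided p = 0.1, adjusted p = 0.136).

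Orc1, an ATPase subunit of the complex, was the gene not called. Its brighter probe set measured 5.54, 5.34 and 5.36 in control and 5.40, 5.39 and 5.97 at 48 hpi, a log2 change of 0.17 (SE 0.16, 95% interval −0.21 to 0.54, limma, adjusted p = 0.467). The groups overlapped, and only replicate 3 at 48 hpi lay above all control arrays. The other probe set of Orc1 measured 3.99, 3.46 and 3.73 in control and 5.54, 4.82 and 5.74 at 48 hpi, and was higher with a change of 1.64 (SE 0.24, limma over every probe set, adjusted p = 0.00115). It rose from within background to above it, by 1.34-fold counted from the background level. The call for Orc1 therefore depended on the probe set.

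Orc3 had the smallest change among the genes called higher. Its brightest probe set measured 6.81, 7.18 and 6.97 in control and 7.37, 7.34 and 7.31 at 48 hpi, a log2 change of 0.35 (SE 0.11, limma, adjusted p = 0.0332). A further probe set went the other way, from 5.59, 5.56 and 5.87 to 5.34, 5.10 and 5.33, and was lower (−0.42, SE 0.12, limma over every probe set, adjusted p = 0.0271). The third did not pass the test (0.22, SE 0.15). With the mean of its probe sets Orc3 changed by 0.05, which did not pass the test, and its call was lost in 11 of the alternatives tried. One of the 4 probe sets of Orc4 was also flat at a level above background, with values of 6.30, 6.53 and 6.35 in control and 6.42, 6.36 and 6.47 at 48 hpi (0.03, SE 0.10), while the other Orc4 probe sets were higher by 0.61 to 0.90.

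**Figure D2:**
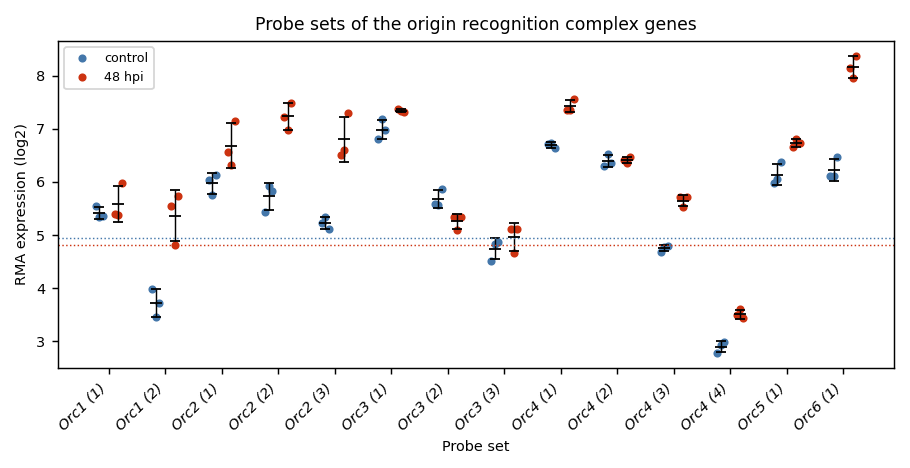
RMA expression (log2) of each probe set of Orc1 to Orc6 by pool (points), for control in blue and 48 hpi in red, and bars give mean and SD. Numbers in parentheses order the probe sets of a gene by their control mean, and background levels are dotted. The brighter probe set of Orc1, a probe set of Orc3 and a probe set of Orc4 were not called, and a further probe set of Orc3 was lower. Every probe set of Orc2, Orc5 and Orc6 was higher.

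All 15 genes of the helicase group, which includes the kinase genes Dbf4 and Cdc7, were higher at 48 hpi. Their median log2 change was 2.58, with a range from 1.1 to 3.74. The 6 subunits of the MCM ring, which together encircle and unwind DNA had log2 changes from 2.55 to 3.74. Mcm3 measured 5.89, 5.92 and 6.10 in control and 9.50, 9.64 and 9.99 at 48 hpi, a rise of 13.4-fold (95% interval 10.8 to 16.6, limma, adjusted p = 1.96e-06). Mcm5 measured 7.41, 7.46 and 7.69 in control and 10.67, 10.85 and 11.27 at 48 hpi, a rise of 10.6-fold. Their intervals on the log2 scale, 3.43 to 4.06 and 3.04 to 3.78, overlap.

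The other 4 subunits lay close together. Mcm2 measured 7.54, 7.65 and 7.67 in control and 9.89, 10.13 and 10.50 at 48 hpi, and Mcm7 8.13, 8.24 and 8.41 and then 10.81, 11.00 and 11.36. Mcm6 measured 7.58, 7.39 and 7.66 in control and 10.00, 10.04 and 10.32 at 48 hpi. Mcm7 changed by 2.79 (SE 0.15), Mcm4 by 2.62 (SE 0.13), Mcm6 by 2.58 (SE 0.12) and Mcm2 by 2.55 (SE 0.15), and each of their intervals overlaps with the others. Of 19 probe sets of Mcm2 to Mcm7, 18 were called higher. The remaining one, for Mcm6, was within background in both groups (2.73 ± 0.15 and 2.82 ± 0.16, SD, n = 3 pools). The 5 probe sets of Mcm3 ranged from 1.08 to 3.74, so that the size of a rise, though not its direction, differed between probe sets. Within arrays the change of Mcm7 exceeded that of Mcm2 by 0.24 with no overlap, and this order reversed with the mean of the probe sets of each gene.

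**Figure D3:**
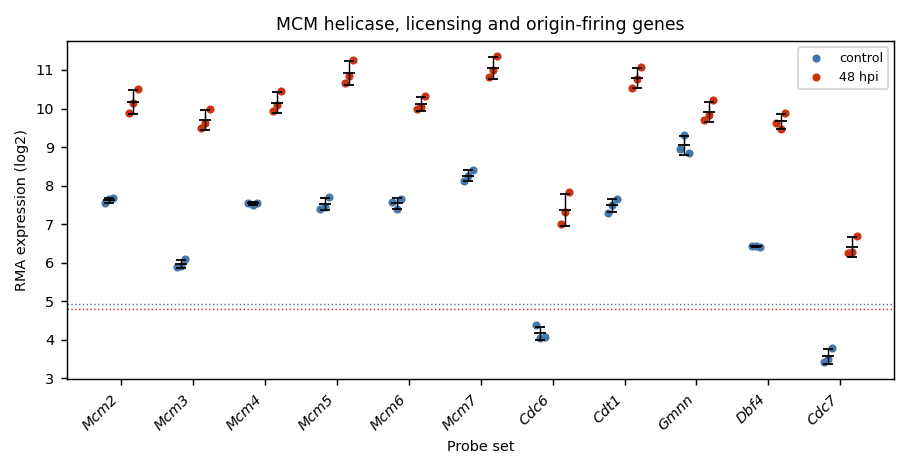
RMA expression (log2) of Mcm2 to Mcm7 and of licensing and origin-firing genes on the probe set used, by pool (points), for control in blue and 48 hpi in red, with mean and SD (bars) and dotted lines at background. The groups do not overlap for any of the 11 genes, and Gmnn has the smallest rise, 0.88.

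The kinase genes that fire origins were both higher. Dbf4, the activating subunit, measured 6.44, 6.44 and 6.42 in control and 9.63, 9.48 and 9.88 at 48 hpi, a rise of 9.41-fold (95% interval 7.86 to 11.3). Cdc7, the catalytic subunit, measured 3.42, 3.5 and 3.80 in control, within background, and 6.26, 6.27 and 6.70 at 48 hpi, a log2 change of 2.84 (SE 0.15) or a 2.78-fold rise counted from background. A second probe set of Cdc7 was within background in both groups and not called (−0.01, SE 0.09). A further probe set of Dbf4, at 2.75 ± 0.03 in control, was also within background and not called (0.13, SE 0.09).

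Cdc45, which joins the MCM ring to form the active helicase, had probe sets that moved in opposite directions. The probe set used measured 4.48, 4.58 and 5.17 in control and 6.40, 5.74 and 6.55 at 48 hpi, and was higher with a log2 change of 1.49 (SE 0.24, limma, adjusted p = 0.00213). The other measured 5.44, 5.35 and 5.43 in control and 4.93, 4.97 and 4.91 at 48 hpi, and was lower (−0.47, SE 0.08, limma over every probe set, adjusted p = 0.00314). The groups did not overlap on either probe set. The first rose from within background, by 2.44-fold counted from the background level, and the second stayed just above it. Scaling every array to the same level of its hybridization controls, which moved the median of all genes from −0.02 to 0.33, left neither this probe set nor that of Orc3 called lower.

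The GINS complex, the remaining part of the active helicase, was uneven on the probe sets used. Gins1 measured 5.00, 4.96 and 4.65 in control and 7.95, 8.04 and 8.42 at 48 hpi, a log2 change of 3.26 (SE 0.15), with a control mean within background. Gins4 measured 6.5, 6.39 and 6.46 in control and 7.85, 7.51 and 7.77 at 48 hpi, a change of 1.26 (SE 0.11). Gins3, the smallest change among the helicase genes, measured 4.89, 5.04 and 5.28 in control and 6.02, 5.95 and 6.56 at 48 hpi, a change of 1.1 (SE 0.18). Gins2 changed by 1.82 (SE 0.09), and the intervals of Gins3 and Gins4 overlap. The change of Gins1 exceeded that of Gins4 by 2.01, with no overlap of the arrays, and by 0.60 with the mean of the probe sets of each gene. A second probe set of Gins2 gave 2.93 (SE 0.13), a value closer to Gins1. Further probe sets of Gins1 and Gins3 were within background in both groups and changed by 0.46 (SE 0.09, called higher) and 0.20 (SE 0.08, not called). Mcm10, a helicase activator, changed by 2.02 (SE 0.27), and Recql4, a helicase that acts in origin firing, by 1.57 (SE 0.28). Control replicate 1 was the highest control array for both, at 6.11 against 5.20 and 5.20 for Mcm10, and at 5.33 against 4.19 and 4.88 for Recql4.

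All 9 polymerase genes on the list were higher, with a median log2 change of 1.99. Pole2, a subunit of polymerase epsilon that extends the leading strand, had the largest rise and Pold3, an accessory subunit of polymerase delta, the smallest. Pole2 measured 5.20, 4.93 and 5.07 in control and 7.60, 7.73 and 8.19 at 48 hpi, a change of 2.77 (SE 0.16). Its catalytic partner Pole measured 5.61, 5.40 and 5.29 in control and 7.62, 7.68 and 8.0 at 48 hpi, a change of 2.33 (SE 0.13). The larger change of Pole2, by 0.44 within arrays, turned round with the mean of its probe sets, of which the second was within background and not called (0.48, SE 0.21).

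The polymerase alpha and primase genes, which lay down the primers, rose by 1.46 to 2.41 on the log2 scale. Pola1, the catalytic subunit, measured 5.97, 6.09 and 6.16 in control and 8.49, 8.30 and 8.67 at 48 hpi, and Pola2, its regulatory subunit, 6.20, 6.25 and 6.39 and then 7.49, 7.65 and 8.05. The change of Pola1 exceeded that of Pola2 by 0.96, with no overlap of the arrays. Prim1, the catalytic subunit of primase, measured 6.62, 6.62 and 6.89 in control and 9.15, 8.72 and 9.23 at 48 hpi, a change of 2.32 (SE 0.15). Prim2, its large subunit, measured 5.85, 5.65 and 5.57 in control and 7.58, 7.50 and 7.97 at 48 hpi, a change of 1.99 (SE 0.14). Both were higher in every array at 48 hpi, and their difference within arrays overlapped between the groups (0.33, exact permutation test, two-sided p = 0.3). With the mean of the probe sets, 1 of which for Prim2 was within background, the change of Prim1 exceeded that of Prim2 by 1.23. Further probe sets of Pola1, Pola2 and Prim2 that were not called lay within background in both groups.

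The genes of polymerase delta on the list changed by 0.51 to 1.75 on the log2 scale. This polymerase copies the lagging strand. Pold4, a subunit gene outside the list, was not called (−0.11, SE 0.09). Its catalytic subunit gene Pold1 measured 6.38, 6.88 and 7.03 in control and 7.90, 7.99 and 8.38 at 48 hpi, a change of 1.32 (SE 0.19). Pold2 measured 6.89, 6.74 and 7.0 in control and 8.58, 8.43 and 8.85 at 48 hpi, a change of 1.75 (SE 0.13). The difference between Pold1 and Pold2 within arrays overlapped between the groups. Pold3 measured 7.07, 7.38 and 7.28 in control and 7.63, 7.74 and 7.89 at 48 hpi, a change of 0.51 (SE 0.11, limma, adjusted p = 0.00883). Its other probe sets gave 0.98 (SE 0.11) and 0.73 (SE 0.10), also below the changes of Pole and Pole2 on the probe sets used.

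All 6 clamp and clamp loader genes were higher, with a median log2 change of 1.67. All 12 of their probe sets were higher too, against 17.7% of all probe sets. Pcna, the sliding clamp, measured 10.21, 9.93 and 10.23 in control and 11.91, 11.67 and 11.90 at 48 hpi, a rise of 3.26-fold (95% interval 2.70 to 3.93). The loader genes split by size of change. Rfc4 measured 5.68, 5.94 and 5.67 in control and 9.0, 8.43 and 8.57 at 48 hpi, a change of 2.91 (SE 0.16), and Rfc5 changed by 2.49 (SE 0.15) and Rfc3 by 1.63 (SE 0.15). Rfc1, the large subunit, measured 7.91, 7.67 and 7.76 in control and 8.55, 8.56 and 8.87 at 48 hpi, a change of 0.88 (SE 0.12), and Rfc2 measured 6.92, 6.99 and 7.02 and then 7.80, 7.68 and 7.78, a change of 0.77 (SE 0.08). The 3 probe sets of Rfc1 agreed within 0.88 to 1.02, and those of Rfc2 within 0.77 to 1.01. Within arrays, the change of Rfc4 exceeded that of Rfc1 by 2.02, with no overlap.

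The 7 genes of single-strand binding and of Okazaki fragment processing, the joining of lagging-strand pieces, were all higher, with a median log2 change of 1.42. Lig1, the ligase that seals the pieces, measured 7.08, 7.14 and 7.07 in control and 9.47, 9.55 and 9.76 at 48 hpi, a change of 2.49 (SE 0.10). Rpa3, the small subunit of replication protein A, measured 8.13, 8.41 and 8.49 in control and 9.33, 9.32 and 9.58 at 48 hpi, a change of 1.07 (SE 0.12) and the smallest of the group. It was higher in every array at 48 hpi. Rpa2 measured 5.82, 5.96 and 6.16 in control and 8.05, 7.98 and 8.53 at 48 hpi, a change of 2.21 (SE 0.16). Rpa1, the large subunit, measured 9.05, 9.13 and 9.26 in control and 10.28, 10.30 and 10.66 at 48 hpi, a change of 1.26 (SE 0.12). The change of Rpa2 exceeded that of Rpa1 by 0.95 within arrays, with no overlap. The RNase H2 genes Rnaseh2a and Rnaseh2b, which remove ribonucleotides from DNA, had changes of 1.42 (SE 0.09) and 1.40 (SE 0.14). Rnaseh2a measured 6.98, 6.85 and 7.01 in control and 8.43, 8.26 and 8.40 at 48 hpi, and Rnaseh2b 7.77, 7.87 and 8.15 and then 9.21, 9.19 and 9.58. Their difference within arrays moved by 0.02 and overlapped between the groups (exact permutation test, two-sided p = 0.9).

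Fen1, the flap endonuclease, shows how the probe set sets the size of a rise. The brighter one, of the x type that may share sequence with other transcripts, measured 8.58, 8.43 and 8.49 in control and 9.83, 10.06 and 10.34 at 48 hpi, a change of 1.58 (SE 0.13). The other measured 5.08, 4.81 and 4.93 in control and 7.77, 7.71 and 8.32 at 48 hpi, a change of 2.99 (SE 0.17). Both were higher with no overlap of the groups.

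The 4 fork protection genes were all higher by a log2 change of at least 2, with a median of 2.36. Clspn, which encodes claspin, the adaptor that links stalled forks to the checkpoint kinase, measured 4.93, 4.21 and 4.96 in control and 7.76, 7.88 and 8.37 at 48 hpi. Its change was 3.30 (SE 0.23), or 8.38-fold counted from the background level, and its second probe set gave 1.75 (SE 0.17). Timeless and Tipin, which form a complex that travels with the fork, changed by 2.57 (SE 0.20) and 2.15 (SE 0.14). Timeless measured 5.45, 5.10 and 5.52 in control and 7.58, 7.86 and 8.36 at 48 hpi, and Tipin 7.62, 7.94 and 7.94 and then 9.92, 9.82 and 10.22. Their difference within arrays overlapped between the groups. Wdhd1, which couples the helicase to polymerase alpha, measured 5.45, 4.98 and 5.58 in control and 7.08, 7.28 and 7.86 at 48 hpi, a change of 2.06 (SE 0.22).

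Of the chromatin assembly genes, Chaf1b was measured. It encodes a subunit of the factor that deposits histones behind the fork. It measured 4.66, 5.07 and 4.82 in control and 7.36, 7.51 and 7.97 at 48 hpi, a change of 2.76 (SE 0.17), or 6.38-fold counted from the background level. A second probe set was within background in both groups and not called (0.07, SE 0.11).

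Over all 104 probe sets, 89 were higher, 2 were lower and 13 were not called, against 17.7% higher and 15.2% lower over all probe sets. The arrays did not overlap in 91 probe sets that were higher at 48 hpi (24.1% of all probe sets) and in 2 that were lower (22.9%). A rise of at least 1 on the log2 scale was called in 71, against 4.61% of all probe sets, of at least 2 in 40, against 0.976%, and of at least 3 in 12, against 0.355%. Every one of the 51 genes had at least 1 probe set called higher. Of the 35 genes with several probe sets, 21 had all of them called higher and 14 had probe sets that disagreed. The shares of all genes with these patterns were not counted, and a gene with more probe sets has more chances of a call. Of the 15 probe sets that were lower or not called, 10 were within background in both groups, as were 6 of the 89 called higher. The other 5 were those of Orc1, Orc3 (2 probe sets), Orc4 and Cdc45, so that 4 of 5 belonged to the origin recognition complex. In control, 7 of the 51 genes were within background on the probe set used (Cdc6, Cdc7, Cdc45, Gins1, Recql4, Clspn and Chaf1b), and at 48 hpi 0 were. Of all 18193 genes, 6395 were within background in control, and 11986 were above it at 48 hpi. Choosing the probe set by a mean that includes the 48 hpi arrays favours a low count at 48 hpi.

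**Figure D4:**
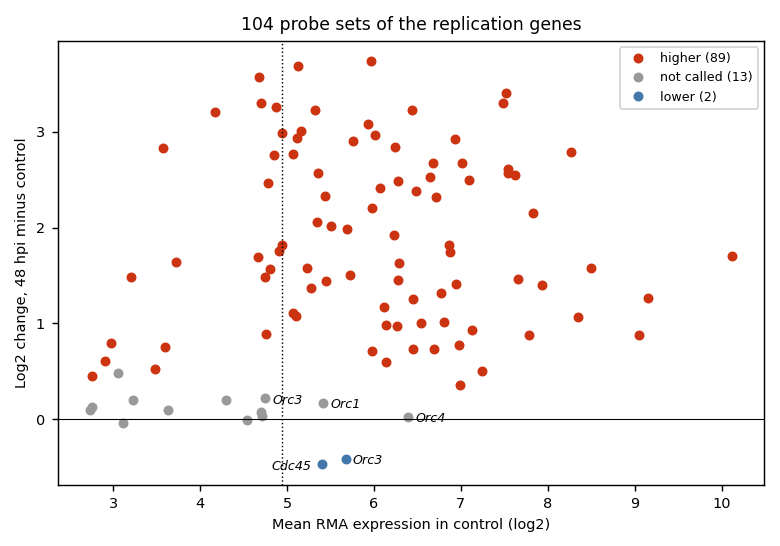
Mean RMA expression in control (log2) of the 104 probe sets of the replication genes against their log2 change, 48 hpi minus control. Red marks 89 probe sets called higher, blue 2 called lower and grey 13 not called, the dotted line the control background of 4.94. Named points are those lower or not called that were above background in at least 1 group.

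Partner genes were compared within arrays for 15 pairs that share a complex or step. The pairs were chosen with earlier results of these data known, so their count describes these pairs only. The difference between partners did not overlap between control and 48 hpi in 11 pairs, against 57% of all pairs of genes on the arrays. Wide differences were those of Cdt1 and Gmnn (2.43), of Rfc4 and Rfc1 (2.02) and of 2 pairs with a gene within background in control. These were Cdc6 and Orc5 (2.61, and 1.84 counted from background) and Gins1 and Gins4 (2.01, and 1.94 counted from background). In each of the 11 the exact permutation test gave a two-sided p of 0.1, the smallest that 3 pools against 3 allow, and an adjusted p of 0.136 over the 15 pairs. The change of Dbf4 exceeded that of Cdc7, whose control values were within background, by 0.40, and by 1.76 counted from background. The change of Orc1 fell behind that of Orc2 on the brighter probe set (−1.33), and with the dimmest probe set of each gene the sign was turned (0.0647). With the dimmest probe sets, several of which were within background, Cdt1 against Gmnn and Gins1 against Gins4 turned too. With the mean of the probe sets of each gene the difference was smaller for Cdt1 and Gmnn (1.29), Orc1 and Orc2 (−0.36), Pola1 and Pola2 (0.53) and Rpa2 and Rpa1 (0.59).

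Genes of the same pathway outside the 52 were also largely higher. They too were listed with earlier results of these data known. Of 41 other replication factors measured, 33 were higher and 0 lower, against 19.4% and 17.5% of all genes, with a median log2 change of 0.86. None was lower at an unadjusted p below 0.05 or with the unmoderated test after adjustment, though 1, Pold4, had all 48 hpi arrays below control. The 4 with the smallest p were Top2a, which relieves DNA tangles (3.08, SE 0.11), Asf1b, a histone chaperone (2.71, SE 0.13), Mcm8, a relative of the MCM ring (1.98, SE 0.10), and Dscc1, a part of an alternative clamp loader (3.54, SE 0.21). Of these 4, Mcm8 and Dscc1 were within background in control, and counted from it they rose by 2.12-fold and 4.26-fold. The 8 genes not called were Mcm9, Mcmbp, Pold4, Top1, Top2b, Rbbp7, Rtel1 and Smarcal1, with changes between −0.11 and 0.05. Among them Pold4, the smallest subunit of polymerase delta, had a mean of 8.06 (SD 0.07) in control and 7.95 (SD 0.06) at 48 hpi, over 3 pools each.

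Most genes of specialised polymerases were not called. Of 11 translesion and repair polymerase genes 2 were higher, 1 was lower and 8 were not called, against 19.4% higher and 17.5% lower over all genes, with a median log2 change of 0.03. Polh, which copies past ultraviolet damage, changed by 0.92 (SE 0.16), and Mad2l2, a subunit of polymerase zeta, by 0.80 (SE 0.13). Polk, a translesion polymerase, was lower (−0.47, SE 0.11, limma, adjusted p = 0.0094). Rev1, a scaffold of translesion synthesis, had the next smallest p and did not pass the test (0.35, SE 0.14).

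Genes of mitochondrial DNA replication changed by small amounts. Of 12 measured, 7 were higher, 1 was lower and 4 were not called, against the same shares over all genes, with a median log2 change of 0.46 and a maximum of 0.78. Tfam, which packages mitochondrial DNA, changed by 0.78 (SE 0.09), Mgme1, a mitochondrial exonuclease, by 0.60 (SE 0.08), Polrmt, the mitochondrial RNA polymerase, by 0.65 (SE 0.10), and Ssbp1, the mitochondrial single-strand binding protein, by 0.46 (SE 0.10). Polg2, the accessory subunit of the mitochondrial polymerase, was lower (−0.31, SE 0.09, limma, adjusted p = 0.026). Whether these lists differ from the nuclear replication genes was not tested.

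**Figure D5:**
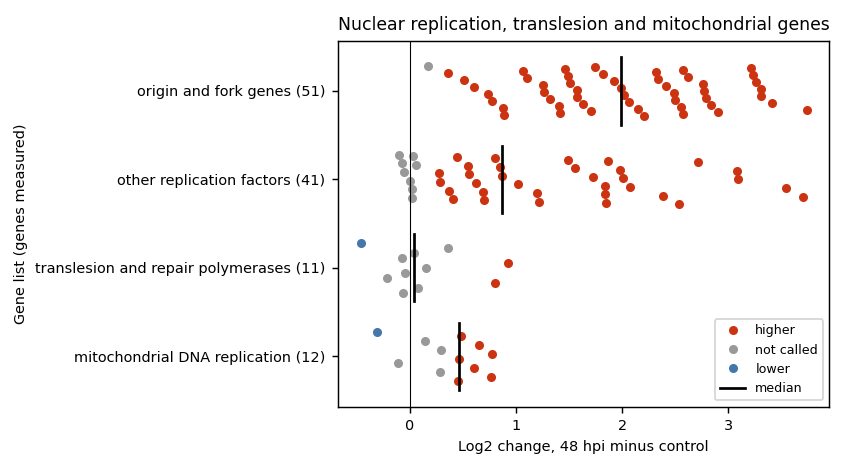
Log2 change, 48 hpi minus control, of each gene of the origin and fork list and of 3 related lists, as points, with the median of each list as a bar. Red marks genes called higher, blue called lower and grey not called. The medians are 1.99, 0.86, 0.03 and 0.46 from top to bottom.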

How the data were processed

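The authors amplified the RNA with MessageAmp Premier, hybridized it to Affymetrix mouse genome arrays and normalized the signals by RMA in Partek Genomics Suite 6.5. The submitters' processing notes also name Affymetrix Expression Console 1.1. The deposited values, log2 signals between 2.01 and 14.6, cover 45101 probe sets on 6 arrays, without detection calls. Array medians were 4.89 to 4.99, and the number of arrays limits the precision. RMA compresses large differences, so folds are those of the array signal.

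Probe sets with 1 gene symbol in the array annotation (34945, without 64 control probe sets) were used, and the one with the highest mean over all arrays stood for its gene. Groups were taken from the labels. The test was limma 3.58.1 (R 4.3.3) without a block, with Benjamini-Hochberg adjustment, fitted over all genes, and again over all probe sets. It was checked on simulated data. Partner pairs were tested by exact permutation (scipy 1.17.1). The members, gene lists and pairs were chosen with earlier results of these data known.

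All members may be named. Values per array are given for the largest and smallest change of each group, members not called or with probe sets that disagree, and partner pairs. From other lists the 4 smallest p and all lower genes are named. Alternatives were a mean-variance trend, an equal-variance t-test per gene (the study's methods name an ANOVA), repeated quantile normalization, 2 scalings, the removal of dim probe sets, 3 other ways to choose the probe set of a gene, array weights, the replicate number as a block, 2 stricter thresholds and leaving out each array.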

Additional observations from a re-analysis of the deposited data

How the results depend on the processing

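Between 47 (an equal-variance t-test) and 50 replication genes were called higher, and 0 lower, under all alternatives but the choice of the dimmest probe set (39 higher, 1 lower) and a log2 change of at least 1 (43 higher). Leaving out 1 array at a time gave 49 to 50. The 2 probe sets called lower (Orc3 and Cdc45) became 1 with that t-test, repeated quantile normalization, a common median or an adjusted p below 0.01, 0 with equal hybridization controls or a log2 change of at least 1, and 1 to 2 when 1 array was left out. Other replication factors called higher were 16 with the dimmest probe set and 20 at a log2 change of at least 1, and 2 were called lower with the dimmest probe set and with the mean of probe sets. Signs turned for Orc1 without 48 hpi replicate 3 (−0.0237; 0.27 without replicate 2, the range when 1 array was left out), and with the dimmest probe set for Cdt1 (−0.0372), Cdc45 (−0.47) and Cdc7 (−0.0065). With the dimmest probe set the partner differences turned for Orc1 and Orc2 (0.0647), Cdt1 and Gmnn (−0.91), Gins1 and Gins4 (−0.801), Pola1 and Pola2 (−0.588), Pole and Pole2 (1.85) and Mcm2 and Mcm7 (0.24). With the mean of probe sets they turned for Pole and Pole2 (0.71) and Mcm2 and Mcm7 (0.11), and for probe sets without an x or s suffix, for Mcm2 and Mcm7 (0.24). Equal hybridization controls moved the share of called genes that were higher from 52.5% to 84.0%, and a common median to 63.4%.

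With the replicate number as a block, 50 replication genes were higher and 0 lower, and 31 other replication factors were higher. Deviations of equally numbered arrays correlated by 0.0681, 0.159 and 0.032, so the numbers were not taken as pairs. Array signal over background limits the size of rises from within background.
The call of Orc3 was lost in 11 alternatives, 5 of which left out 1 array and 2 of which were the stricter thresholds, and those of Gmnn and Recql4 with that t-test. The cause was not tested.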
